A study of Homo sapiens with 4 samples.

Results

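The genes described here make, load or switch on major histocompatibility complex (MHC) class I, and they were followed in liver cancer cells whose COP1, an E3 ubiquitin ligase, was knocked down. The 9 genes were picked by name out of the 46427 genes in the tables: the heavy chains HLA-B, HLA-C, HLA-E and HLA-F, the light chain B2M, the peptide transporter subunits TAP1 and TAP2, the loading factor TAPBP and the transactivator NLRC5. RNA was sequenced from Huh7 and HepG2, both established human liver cancer lines. The cells had been transfected for 5 h with 20 nM siRNA, either a negative control (NC-siRNA) or COP1-siRNA, and were harvested at 48 h. Each line received each siRNA in 1 library, which gave 4 libraries, all with the same batch label. The control cells were labelled as wild type and the others as COP1 knockdown, a transient knockdown in otherwise unmodified lines. Each condition is 1 library, the differences below were not tested, and none carries a p-value.

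MHC class I molecules show peptides from inside the cell to cytotoxic T cells. Proteasomes cut proteins into peptides, the TAP1 and TAP2 transporter moves these into the endoplasmic reticulum, and tapasin, the product of TAPBP, bridges the transporter to a heavy chain paired with beta-2 microglobulin, the product of B2M. A heavy chain that finds neither B2M nor peptide is kept from the cell surface. NLRC5 raises transcription of class I genes together with factors bound at their promoters, and interferon gamma raises most of the pathway, in part through IRF1. Hepatocytes normally carry modest class I levels, and liver tumours often lose parts of this pathway.

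The level of a gene is given as TPM, a share of transcripts corrected for their length and scaled to sum to 1000000 in each library, so that genes can be compared within a library. Each table was normalized on its own, which limits any level set across libraries. The tables hold no read counts. The mean coverage, in reads per base, marks the values with few reads behind them, and the ratio of coverage to FPKM put the relative depth of the COP1-siRNA library against its control at 1.14 (Huh7) and 1.28 (HepG2). COP1 itself stood at 19.7 TPM in the control and 6.18 TPM in the knockdown library of Huh7, and at 26.9 and 16.1 TPM in those of HepG2. All 7 hepatocyte markers examined were above 1 TPM in every library, with a summed level of 10405 and 8872 TPM in Huh7 and 2295 and 2668 TPM in HepG2. Of 7 leukocyte markers 3 reached 1 TPM in each library, with a summed level of 208 and 178 TPM in Huh7 and 209 and 169 TPM in HepG2, most of it LYZ. The 3 were LYZ, CD68 and CD14 in Huh7, and LYZ, CD68 and CD79A in HepG2. CD68 was at 58.2 and 56.4 TPM in Huh7 and at 15.6 and 17.3 TPM in HepG2. The defining leukocyte genes PTPRC and CD3E were listed at 0 in all 4 libraries. With NC-siRNA 5 of the 7 hepatocyte markers were at least 2-fold lower in HepG2 than in Huh7, against 14.7% of all measured genes. This difference lies between the same lines as those described next, and its part in them was not tested.

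The lines differed far more than the siRNA treatments did. HepG2 cells carried high levels of class I heavy chain RNA and Huh7 cells very little, while Huh7 held the larger amount of B2M and TAPBP. The summed level of the 4 heavy chains was 17.6 TPM in control Huh7 cells and 16.8 TPM after COP1-siRNA, and 521 and 534 TPM in the corresponding HepG2 cells. By plain TPM the sum was 29.7-fold higher in HepG2 with NC-siRNA and 31.9-fold higher with COP1-siRNA.

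**Figure D1:**
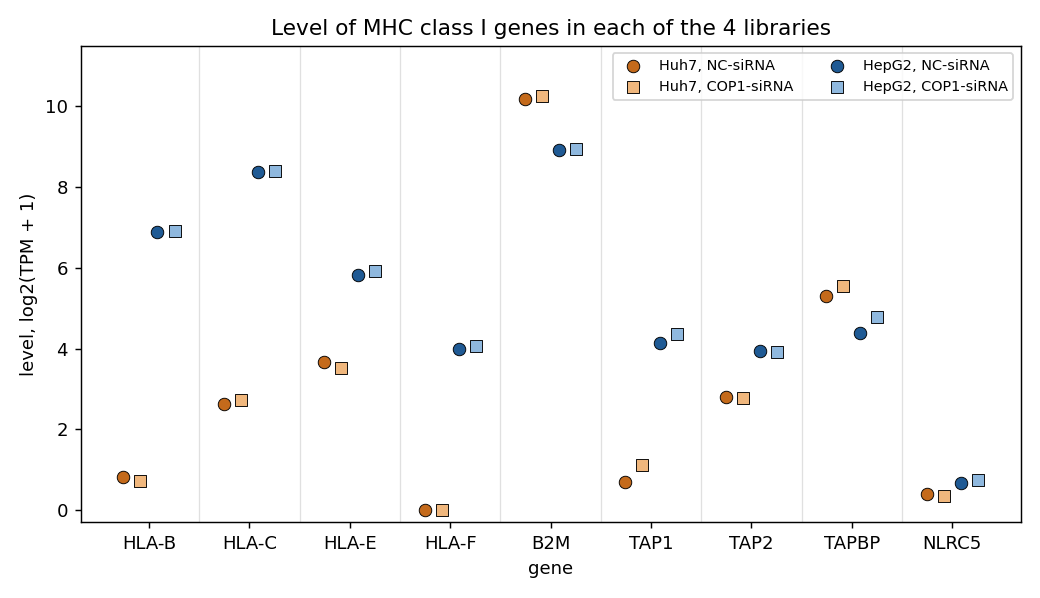
Level of the 9 genes in each library, as log2(TPM + 1), with Huh7 in orange and HepG2 in blue, circles for NC-siRNA and squares for COP1-siRNA. Each point is 1 library, the siRNA pairs lie close together, and the lines stand apart for the heavy chains and TAP1, with B2M and TAPBP higher in Huh7.

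HLA-C (gene 3107, chromosome 6 of GRCh38, 31268749 to 31272092, minus strand), a classical heavy chain, was the most abundant of the 4 in HepG2. It was at 5.15 TPM in Huh7 with NC-siRNA, 5.62 TPM in Huh7 with COP1-siRNA, 332 TPM in HepG2 with NC-siRNA and 339 TPM in HepG2 with COP1-siRNA. Both HepG2 values were over 60-fold above the Huh7 value of the same siRNA, with plain ratios of 64.5 and 60.3 and differences of 5.76 and 5.68 on the log2(TPM + 1) scale. In HepG2, HLA-C stood at percentile 97.0 of the genes with at least 1 TPM with NC-siRNA, and in Huh7 at percentile 24.2.

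HLA-B (gene 3106, chromosome 6, 31353875 to 31357179, minus strand), the other classical heavy chain examined, was at 0.779 and 0.660 TPM in Huh7 with NC-siRNA and COP1-siRNA and at 118 and 120 TPM in HepG2. The difference between the lines was 6.07 on the log2(TPM + 1) scale with NC-siRNA and 6.19 with COP1-siRNA. Of all 15055 genes measured between the lines with NC-siRNA, 0.166% had a difference in that direction at least as large. HLA-B passed the minimum of 1 TPM through HepG2 alone, so the direction was fixed and this share is a description only. The Huh7 values rest on a mean coverage of 2.08 and 2.09 reads per base, against 295 and 375 in HepG2. HLA-B, HLA-C and the other heavy chains are close copies of one another and differ between people, so that a few reads can be assigned to the wrong gene and a line's own alleles can align less well than the reference allele. The part of either in these levels was not tested.

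HLA-E (gene 3133, chromosome 6, 30489508 to 30494194, plus strand), a non-classical heavy chain that shows leader peptides of other heavy chains to natural killer cells, differed less than HLA-B and HLA-C. It was at 11.7 and 10.5 TPM in Huh7 and at 55.9 and 59.5 TPM in HepG2, a plain ratio between the lines of 4.80 with NC-siRNA and 5.69 with COP1-siRNA. HLA-F (gene 3134, chromosome 6, 29723340 to 29740355, plus strand), also non-classical, was listed at 0 in both Huh7 libraries and at 14.9 and 15.7 TPM in HepG2. No fold is given for it. Its HepG2 coverage, 6.09 and 8.22 reads per base, was 0.18 of what a typical gene of that TPM had, and the cause was not tested. The antisense gene HLA-F-AS1 overlaps HLA-F and was at 2.41 and 2.66 TPM in HepG2. The kit kept the strand, but whether the quantification used it is not given in the sources used here, so reads of the pair cannot be told apart.

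The make-up of the heavy chain RNA within a library, which does not depend on scaling between libraries, also differed. HLA-E gave 66.3% and 62.5% of the summed TPM of the 4 genes in Huh7 with NC-siRNA and COP1-siRNA, and 10.7% and 11.1% in HepG2. HLA-C gave 29.3% and 33.6% in Huh7 and 63.7% and 63.5% in HepG2. The share of HLA-B was 4.43% and 3.94% in Huh7 and 22.7% and 22.5% in HepG2. Thus the non-classical HLA-E led in both Huh7 libraries and the classical HLA-C in both HepG2 libraries.

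**Figure D2:**
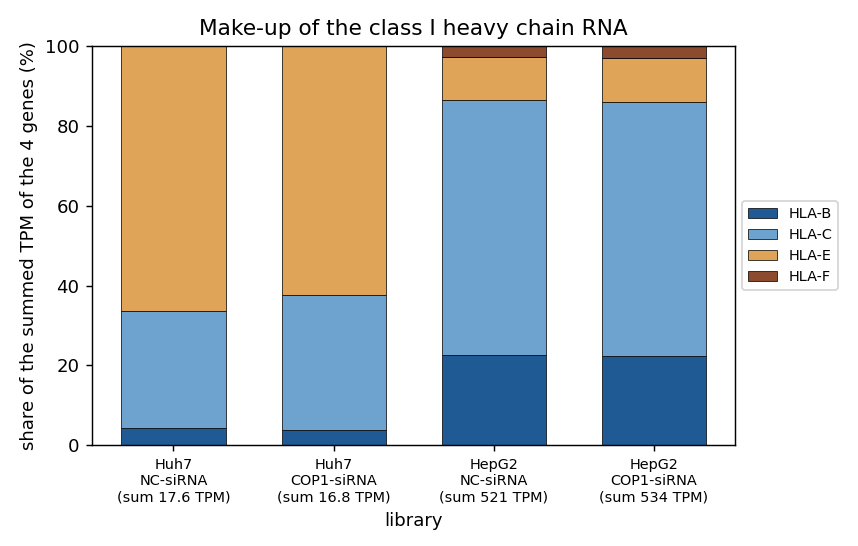
Share of each of 4 heavy chain genes in their summed TPM, in percent, 1 bar per library, with the sum under each bar. HLA-E makes up over 60% of the Huh7 bars and HLA-C over 60% of the HepG2 bars, and the bars of a line look alike with either siRNA.

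B2M (gene 567, chromosome 15, 44711492 to 44718145, plus strand) encodes the light chain that every class I heavy chain needs, and it ran opposite to the heavy chains. It was at 1161 and 1224 TPM in Huh7 with NC-siRNA and COP1-siRNA and at 485 and 496 TPM in HepG2, so that Huh7 was 2.40-fold and 2.47-fold higher by plain TPM. B2M was among the most abundant genes of both lines, at percentile 98.1 to 99.1 of the genes with at least 1 TPM. Per TPM of the 4 heavy chains, there were 66.0 and 73.1 TPM of B2M in Huh7 and 0.929 and 0.928 TPM in HepG2. In Huh7 the light chain RNA was therefore in large excess over these heavy chains, and in HepG2 the levels were nearly equal. Read from coverage in place of TPM the ratios were 24.2 and 26.6 in Huh7 and 0.323 and 0.324 in HepG2. The coverage of B2M was 0.36 of that of a typical gene with its TPM in each library.

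The transporter and tapasin split as well. TAP1 (gene 6890, chromosome 6, 32845209 to 32853704, minus strand) was at 0.619 and 1.16 TPM in Huh7 and at 16.6 and 19.6 TPM in HepG2, a difference of 3.44 with NC-siRNA and 3.26 with COP1-siRNA on the log2(TPM + 1) scale. TAP2 (gene 6891, chromosome 6, 32821833 to 32838770, minus strand), its partner subunit, was at 5.99 and 5.85 TPM in Huh7 and at 14.4 and 14.1 TPM in HepG2, 2.41-fold higher in HepG2 with either siRNA. The subunits work as a pair, and their levels were near each other in HepG2 only: TAP2 over TAP1 was 9.68 and 5.06 in Huh7 against 0.870 and 0.719 in HepG2. TAPBP (gene 6892, chromosome 6, 33299694 to 33314387, minus strand) was higher in Huh7, at 38.7 and 45.8 TPM, than in HepG2, at 19.9 and 26.4 TPM. Its plain ratio of Huh7 over HepG2 was 1.94 and 1.73, below the 2-fold threshold.

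NLRC5 (gene 84166, chromosome 16, 56989547 to 57083524, plus strand), the class I transactivator, was under 1 TPM in every library. It was at 0.311 and 0.284 TPM in Huh7 and at 0.594 and 0.664 TPM in HepG2, with a mean coverage between 0.217 and 0.593 reads per base. HepG2 thus held 521 and 534 TPM of heavy chain RNA with NLRC5 below the minimum used here, and the NLRC5 values are too low for a fold change to be read.

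Of the 9 genes, 8 had at least 1 TPM in a library of the NC-siRNA pair. With NC-siRNA, 6 of them were at least 2-fold higher in HepG2, against 27.9% of all measured genes, and 1 was at least 2-fold lower, against 14.7%. With COP1-siRNA the same counts were 6 and 1 of 8, against 26.0% and 14.0%. HLA-B, HLA-F and TAP1 passed the minimum through HepG2 alone with NC-siRNA, and HLA-B and HLA-F with COP1-siRNA, so they had to be higher there and the counts are a description only. The median difference of all measured genes was 0.37 with NC-siRNA and 0.35 with COP1-siRNA toward HepG2. Relative to that shift the heavy chains, TAP1 and TAP2 remained on the HepG2 side and B2M and TAPBP on the Huh7 side. With median-of-ratios scaling the shift was 0.04 for each siRNA. The difference of TAP2 then went to 0.84 and 0.85, under 2-fold, and that of TAPBP to −1.25 and −1.09, past 2-fold.

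The order of the levels followed the same division. In both HepG2 libraries it ran, from the top, B2M, HLA-C, HLA-B, HLA-E, TAPBP, TAP1, HLA-F, TAP2 and NLRC5. In Huh7 with NC-siRNA it ran B2M, TAPBP, HLA-E, TAP2, HLA-C, HLA-B, TAP1, NLRC5 and HLA-F. With COP1-siRNA only HLA-B and TAP1 changed places in Huh7. Some neighbours lay close, as TAP1, HLA-F and TAP2 did in HepG2 with NC-siRNA, at 16.6, 14.9 and 14.4 TPM, and HLA-B and TAP1 in Huh7. With no replicates there is no spread against which to read their order.

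Class I promoters are known for an enhanceosome that NLRC5 joins, with a CCAAT box and a cyclic AMP response element among its parts, and for interferon and NF-kB elements upstream of the transcription start. The 300-base windows from 250 bases before to 50 bases after the start (RefSeq, GRCh38.p14) are shown for 5 genes to compare those higher in HepG2, HLA-B, HLA-C and TAP1, with those higher in Huh7, B2M and TAPBP. They are reference sequences and say nothing of the alleles of the lines. Capitals mark matches, on either strand, to CCAAT, to TGACG (the core of a cyclic AMP response element), to GTTGC (a core of an X box), to an interferon element (GAAA, any 2 bases, GAAA) or to a kB site (GGGA, any base, TTTCC). Adjacent or overlapping matches run together.
HLA-B, chr6:31357130-31357429, minus strand: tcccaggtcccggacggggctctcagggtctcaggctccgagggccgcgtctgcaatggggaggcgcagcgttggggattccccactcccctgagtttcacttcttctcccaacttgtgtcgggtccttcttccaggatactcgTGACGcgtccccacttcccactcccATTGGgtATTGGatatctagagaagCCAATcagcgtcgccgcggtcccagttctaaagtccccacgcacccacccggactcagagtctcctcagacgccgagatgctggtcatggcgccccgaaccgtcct
HLA-C, chr6:31272043-31272342, minus strand: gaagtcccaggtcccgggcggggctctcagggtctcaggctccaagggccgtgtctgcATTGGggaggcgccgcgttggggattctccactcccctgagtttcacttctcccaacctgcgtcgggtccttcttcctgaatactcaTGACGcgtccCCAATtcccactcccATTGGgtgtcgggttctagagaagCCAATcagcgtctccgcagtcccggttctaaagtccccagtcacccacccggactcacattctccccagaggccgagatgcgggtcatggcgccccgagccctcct
TAP1, chr6:32853655-32853954, minus strand: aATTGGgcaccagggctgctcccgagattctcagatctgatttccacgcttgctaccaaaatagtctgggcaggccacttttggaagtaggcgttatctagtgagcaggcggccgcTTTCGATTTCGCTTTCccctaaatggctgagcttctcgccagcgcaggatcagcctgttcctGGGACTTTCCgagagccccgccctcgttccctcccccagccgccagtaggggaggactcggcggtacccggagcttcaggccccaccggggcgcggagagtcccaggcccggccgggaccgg
B2M, chr15:44711267-44711566, plus strand: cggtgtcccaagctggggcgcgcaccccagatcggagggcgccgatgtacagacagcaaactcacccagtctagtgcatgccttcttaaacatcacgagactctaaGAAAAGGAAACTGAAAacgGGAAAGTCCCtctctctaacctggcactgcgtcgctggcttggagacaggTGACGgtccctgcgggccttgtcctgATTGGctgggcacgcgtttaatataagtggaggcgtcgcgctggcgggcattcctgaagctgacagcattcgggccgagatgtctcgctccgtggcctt
TAPBP, chr6:33314029-33314328, minus strand: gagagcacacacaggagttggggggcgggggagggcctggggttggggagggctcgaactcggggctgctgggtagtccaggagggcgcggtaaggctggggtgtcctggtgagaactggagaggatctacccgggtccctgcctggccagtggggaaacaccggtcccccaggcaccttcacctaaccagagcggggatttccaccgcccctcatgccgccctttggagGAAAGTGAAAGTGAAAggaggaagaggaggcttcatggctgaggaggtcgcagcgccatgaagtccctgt

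Windows were found for 7 of the 9 genes, these 5 with HLA-F and TAP2, and of the 2 windows listed for TAP1 only the first was counted. CCAAT was present in 5 of the 7, HLA-B, HLA-C, HLA-F, B2M and TAP1, against 34.6% of all 35116 windows in the table. HLA-B and HLA-C each carried it on the plus strand 56 bases before the start, and TGACG 106 and 105 bases before it. B2M held TGACG 75 bases and the reverse of CCAAT 49 bases before its start. TGACG was present in 4 of the 7, against 24.6% of all windows, and GTTGC in 0 of the 7, against 33.6%. A match to the interferon letters was found in HLA-F, B2M, TAP1, TAP2 and TAPBP, 5 of the 7, against 3.57% of all windows. In TAPBP it lay 20 and 14 bases and in TAP1 134 and 128 bases before the start. The kB letters matched in B2M and TAP1, against 0.558% of all windows. Only these exact letters were searched. A window without a match, as those of HLA-B and HLA-C, can therefore hold a variant of either element. Of the genes higher in Huh7, B2M and TAPBP both matched the interferon letters. Of those higher in HepG2, HLA-F, TAP1 and TAP2 matched them and HLA-B and HLA-C did not. The part of any of these letters in the levels was not tested.

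With COP1-siRNA the measured class I genes stayed within 1.5-fold of control in both lines on the log2(TPM + 1) scale. By plain TPM COP1 itself was 3.18-fold lower in Huh7 but 1.67-fold lower, short of 2-fold, in HepG2. In Huh7, 6 of the 9 genes were measured, and 0 of them were 2-fold higher or 2-fold lower, against 0.638% and 0.446% of all 13000 measured genes. In HepG2, 8 were measured, again with 0 in either direction, against 0.540% and 0.394% of 14456 genes. At 1.5-fold the counts were also 0, where the shares of all genes were 2.80% upward and 2.68% downward in Huh7, and 2.56% upward and 1.87% downward in HepG2. At such shares most lists of this size hold no gene past the threshold, so a count of 0 says little about these genes. The median log2 fold change of the measured genes was 0.09 in Huh7 and 0.05 in HepG2, beside −0.00083 and −0.0080 for all genes. Hepatocyte markers changed too, with 7 of 7 above their control in HepG2 (median 0.40) and 6 of 7 below it in Huh7 (median −0.12). Their median was thus opposite in sign to that of the class I genes in Huh7 and of the same sign in HepG2. The part of the marker change in the class I values was not tested.

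**Figure D3:**
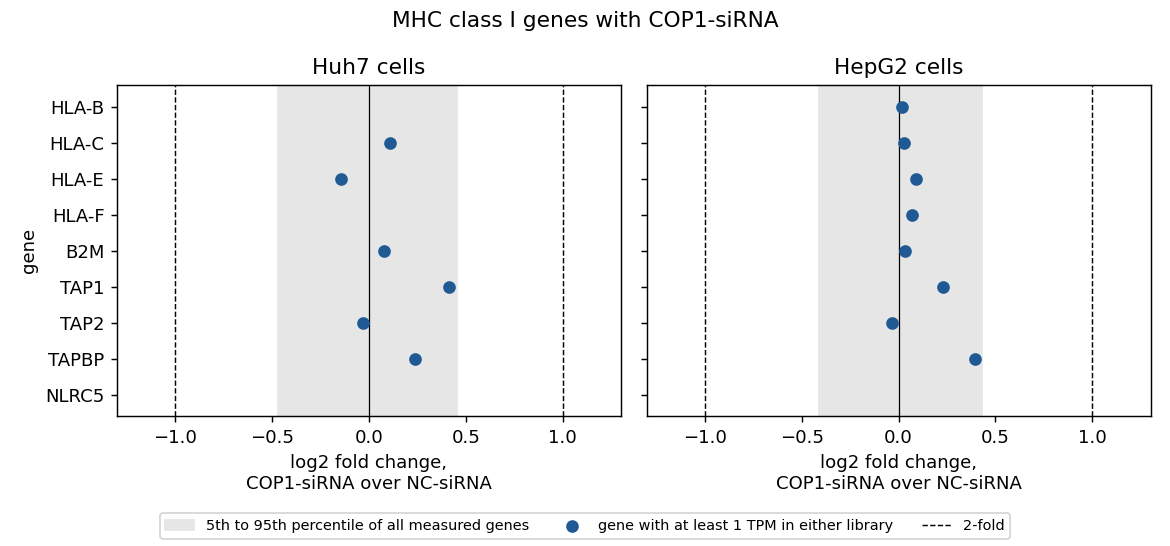
Change of each class I gene with COP1-siRNA, as the log2 ratio of TPM + 1 between the siRNAs, in Huh7 on the left and HepG2 on the right, for genes with at least 1 TPM in either library of the line. Each point is a comparison of 1 library with 1 library, and all 6 points in Huh7 and all 8 in HepG2 lie inside the grey band from the 5th to the 95th percentile of all measured genes, away from the dashed 2-fold lines.

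The classical heavy chains and B2M were nearly level. The log2 fold change of HLA-C was 0.11 in Huh7 and 0.03 in HepG2, that of B2M 0.08 and 0.03, and that of HLA-B in HepG2 0.02. The summed heavy chains changed by −0.07 in Huh7 and 0.04 in HepG2. HLA-E changed by −0.14 in Huh7, where 26.5% of all measured genes fell at least as far, and by 0.09 in HepG2.

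The largest values among the 9 belonged to the loading machinery. TAPBP was at 38.7 TPM in control and 45.8 TPM in knockdown Huh7 cells, and at 19.9 and 26.4 TPM in HepG2. Its log2 fold change was 0.24 in the Huh7 pair and 0.39 in the HepG2 pair. Of all measured genes, 15.4% in Huh7 and 5.87% in HepG2 had a rise at least as large. TAP1 changed by 0.41 in Huh7 and 0.23 in HepG2, and 6.12% and 13.4% of all genes did so at least as much. The Huh7 value passed the minimum of 1 TPM through COP1-siRNA alone, so it had to be positive and its share is a description only. In Huh7 the coverage of TAP1 was 1.56 reads per base with NC-siRNA and 3.27 with COP1-siRNA, so its plain ratio of 1.87 rests on few reads, and with a pseudocount of 0.1 in place of 1 the log2 value was 0.81. TAP2 stood at −0.03 in both lines, a direction that turned to 0.01 in Huh7 with upper-quartile scaling and 0.02 with FPKM. The levels of TAP1 and TAPBP were thus above control in both lines, and each of these differences was under 1.5-fold on the log2(TPM + 1) scale.

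The partners of these genes in the pathway were read from 8 lists of 54 genes. In Huh7, 40 of them were measured, and 0 were 2-fold higher or lower with COP1-siRNA. In HepG2, 49 were measured, also with 0 past 2-fold. The counts are on the log2(TPM + 1) scale, where the added 1 lowers the ratio of genes near 1 TPM. At 1.5-fold, 0 were higher and 2 lower in Huh7, beside 2.80% and 2.68% of all genes, and 1 was higher and 1 lower in HepG2, beside 2.56% and 1.87%. These counts are close to the shares over all genes.

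The gene with the greatest fall in Huh7 was CANX (gene 821, chromosome 5, 179678646 to 179731641, plus strand), which encodes calnexin, the chaperone that holds new heavy chains before B2M joins. CANX was at 720 TPM in control and 371 TPM in knockdown Huh7 cells, and at 549 and 370 TPM in HepG2, log2 fold changes of −0.96 and −0.57. A fall at least as large was found in 0.515% of all measured genes in Huh7 and 2.06% in HepG2. CANX was lower with COP1-siRNA in both lines and did not reach 2-fold in either. The other chaperones of the list moved less, with CALR (calreticulin) at −0.01 and 0.07 and PDIA3, a partner of tapasin, at −0.19 and 0.02. SEL1L, a part of the machinery that removes misfolded proteins from the endoplasmic reticulum, was at 30.1 and 19.7 TPM in the Huh7 libraries (−0.59) and at 19.6 and 17.2 TPM in the HepG2 libraries (−0.18). In HepG2 the genes past 1.5-fold were CD74, the class II invariant chain, from 15.1 to 26.1 TPM with a log2 fold change of 0.75, and HLA-DPA1, a class II chain, from 1.92 to 0.772 TPM with −0.72. By plain TPM HLA-DPA1 was 2.49-fold lower, on a mean coverage of 4.6 and 2.32 reads per base. It passed the minimum of 1 TPM through NC-siRNA alone, so it had to be lower with COP1-siRNA.

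RNA levels of the interferon-inducible proteasome subunits PSMB8 and PSMB9 were higher in HepG2 than in Huh7. PSMB8, which replaces PSMB5 in the immunoproteasome, was at 0.164 and 0.0958 TPM in Huh7 and 9.82 and 11.6 TPM in HepG2. PSMB9, which replaces PSMB6, was listed at 0 in both Huh7 libraries and stood at 1.75 and 2.95 TPM in HepG2. PSMB10, the third of these subunits, was at 13.1 and 12.3 TPM in Huh7 and 19.1 and 23.7 TPM in HepG2, a ratio of 1.46 with NC-siRNA and 1.92 with COP1-siRNA. PSMB9 and TAP1 lie head to head on chromosome 6 with 488 bases between their starts, and both were low in Huh7. The constitutive subunits PSMB5, PSMB6 and PSMB7 were abundant in both lines, from 275 to 574 TPM. PSMB8 thus stood at 0.0293% and 0.0184% of PSMB5 in Huh7 and at 2.37% and 2.54% in HepG2. Its Huh7 values rest on a mean coverage of only 0.381 and 0.264 reads per base. Of the enzymes that trim peptides, ERAP1 was higher in Huh7, at 26.8 and 24.6 TPM against 5.14 and 6.24 TPM, and ERAP2, whose locus overlaps that of ERAP1, in HepG2, at 2.19 and 2.91 TPM against 0.116 and 0.145 TPM.

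The transcription factors of the pathway named here did not all run with the heavy chains. IRF1, an interferon-induced factor, was at 5.89 and 8.59 TPM in Huh7 and 4.15 and 4.70 TPM in HepG2. RFX5 and RFXAP, subunits of the factor that binds the X box, were higher in HepG2. RFX5 was at 13.2 and 12.5 TPM in Huh7 and 40.1 and 37.2 TPM in HepG2, and RFXAP at 3.64 and 3.75 against 16.6 and 20.2 TPM. RFXANK, the remaining subunit, was higher in Huh7, at 92.7 and 89.4 TPM against 48.8 and 46.7 TPM. The receptor gene IFNGR1 was at 37.2 and 52.4 TPM in Huh7 and 74.4 and 80.7 TPM in HepG2, and the kinase gene JAK1 at 107 and 112 TPM against 49.4 and 55.6 TPM.

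**Figure D4:**
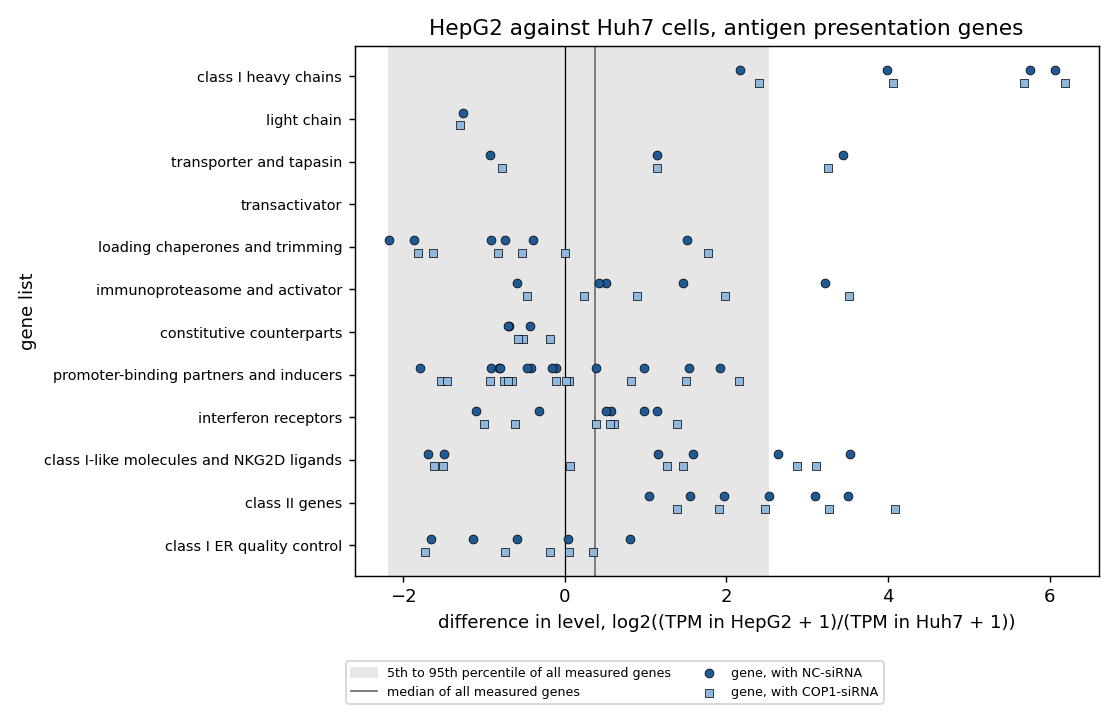
Difference in level between HepG2 and Huh7, as log2((TPM in HepG2 + 1)/(TPM in Huh7 + 1)), for each measured gene of the 12 lists, circles with NC-siRNA and squares with COP1-siRNA. Grey marks the 5th to 95th percentile and the vertical grey line the median of all measured genes with NC-siRNA. HLA-B, HLA-C and HLA-F lie far to the right of the band, as CD74 does with COP1-siRNA, and B2M lies left of zero. TAP1, PSMB8, HLA-DQB1 and ULBP3 also lie right of the band. Genes listed at 0 in Huh7, HLA-F among them, owe their position to the added 1.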

How the data were processed

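Libraries were made from poly(A)+ RNA with a strand-keeping kit. Per the labels, the submitters' processing notes name FastQC 0.11.7, Trimmomatic 0.38, HISAT2 2.1.0, StringTie 2.1.3b, edgeR and GRCh38, without the role of each. For each library the authors deposited coverage (mean reads per base, not scaled for depth), FPKM and TPM of every gene, the latter pair normalized within the library. Read depth and counting error are unknown. The gene name column held no names, so genes were matched by NCBI Gene number to RefSeq (GRCh38.p14), which named 44698 of 46427 numbers. Lines with the same number were summed.

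Groups came from the sample titles. The log2 ratio of TPM + 1 was computed within each line (COP1-siRNA over NC-siRNA) and between lines (HepG2 over Huh7) for genes with at least 1 TPM in either library, with a 2-fold threshold. Each line was read alone, with 1 library per group and so no test. All 9 genes were named, and of the 8 pathway lists those past 1.5-fold with COP1-siRNA and at most 4 more per list by mean TPM. ERAP2, PSMB9, RFXAP, IRF1, HFE, MR1, ULBP1 and CIITA lie outside that rule and were named after their values were seen, as were the cell type markers printed. The genes and lists were chosen with earlier results of these data known. Python 3.11.15, numpy 2.4.6, pandas 2.3.3 and matplotlib 3.10.9 were used. Other class I genes were not analysed here, and 1 gene of the lists is not reported here.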

Additional observations from a re-analysis of the deposited data

Results flagged for a closer look

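HLA-E was the gene among the 6 measured in Huh7 and HepG2 whose change with COP1-siRNA, by TPM, had a different sign in each line. With FPKM or upper-quartile scaling TAP2 also did, at 0.02 and −0.05 with FPKM and 0.01 and −0.02 with upper-quartile scaling in Huh7 and HepG2. The level of HLA-E was 11.7 TPM in control and 10.5 TPM in knockdown Huh7 cells, and 55.9 and 59.5 TPM in HepG2, so that the log2 fold changes, −0.14 and 0.09, were 0.23 apart. With 1 library per condition the difference between the lines was not tested. Both HLA-E values lie between the 5th and the 95th percentile of all measured genes.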

How the results depend on the processing

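The alternatives were a pseudocount of 0.1, FPKM or depth-scaled coverage in place of TPM, scaling by median-of-ratios or upper quartile, TPM without mitochondrial and the 10 highest genes, no minimum TPM or one of 5, only the highest line of a repeated gene number, and a 1.5-fold threshold. None brought a class I gene past the threshold with COP1-siRNA: all 138 values kept their side. Between the lines 152 of 160 single values did. The number of genes at least 2-fold lower in HepG2 with NC-siRNA went from 1 to 2 under median-of-ratios, upper-quartile, reduced-TPM and 1.5-fold settings, and with COP1-siRNA to 2 under median-of-ratios and 1.5-fold. TAPBP was the gene added each time. By coverage, B2M over the summed heavy chains was 24.2 and 26.6 in Huh7 and 0.323 and 0.324 in HepG2, with the cause not tested, and HLA-F made up 0.487% and 0.513% of the sum in HepG2 in place of 2.86% and 2.94%. With depth-scaled coverage the difference of HLA-F between the lines was 1.86 with NC-siRNA and 1.93 with COP1-siRNA, in place of 3.99 and 4.06. The difference of the summed heavy chains between the lines ranged from 4.48 to 4.88 with NC-siRNA. A fit over both lines with the line as a block would leave 1 residual degree of freedom and was not run. Depth is unknown, so the error of low values such as HLA-B and TAP1 in Huh7 could not be given.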

Other observations

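Molecules that resemble class I or that natural killer cells read also differed between the lines. MICA and MICB, stress-induced ligands of the receptor NKG2D, ran in opposite directions: MICA was at 3.44 and 3.60 TPM in Huh7 with NC-siRNA and COP1-siRNA and at 26.6 and 32.7 TPM in HepG2, and MICB at 30.2 and 26.8 TPM in Huh7 and 10.1 and 8.81 TPM in HepG2. ULBP3, another such ligand, was at 0.202 and 0.421 TPM in Huh7 and 12.9 and 11.2 TPM in HepG2, and ULBP2 at 2.98 and 2.52 against 7.83 and 8.70 TPM. HFE, a class I-like regulator of iron uptake that also pairs with B2M, was at 3.93 and 4.06 TPM in Huh7 and 0.529 and 0.648 TPM in HepG2. With COP1-siRNA 0 of the 6 measured genes of this list passed 1.5-fold in either line, beside 2.80% of all genes higher and 2.68% lower in Huh7 and 2.56% and 1.87% in HepG2, shares at which a list this short mostly holds none.

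Several class II genes, which mark antigen-presenting cells, had low levels in HepG2. HLA-DQB1 was at 10.4 and 8.65 TPM, HLA-DMB at 4.75 and 4.56 TPM and CD74 at 15.1 and 26.1 TPM. In Huh7, 8 of the 10 class II genes were listed at 0 with NC-siRNA and 9 with COP1-siRNA, and CD74 was at 0.881 and 0.598 TPM. The class II transactivator gene CIITA and the leukocyte gene PTPRC were listed at 0 in all 4 libraries.

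Over the 4 libraries, the genes closest in pattern to the summed heavy chains, by distance between centred log2(TPM + 1) profiles among 11432 genes with at least 1 TPM in every library, were GPX2, ZNF503, BEX4, SLC6A8 and BEX2, with distances of 0.20, 0.26, 0.47, 0.49 and 0.50. GPX2 was at 4.10 and 4.74 TPM in Huh7 and 146 and 166 TPM in HepG2. With 4 libraries of 2 lines, the profile compared is mostly the difference between the lines.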
